A study of Homo sapiens with 8 samples.

Results

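The genes described here are 60 genes that were higher in every IER5L-silenced sample of PC3 cells than in every control sample, out of 58051 genes in the table. PC3 is an established human prostate cancer cell line. A gene was a member if its CPM (the count of a gene scaled to the total count of its sample) averaged at least 2 over the 8 samples, if the log2 ratio of its mean CPM in silenced over control cells was at least 0.5, and if the lowest silenced sample lay above the highest control sample. Of the 58051 genes, 12399 had the required mean CPM, and the 60 members were 0.484% of these. The rule was applied to the same counts that are described below, so the ratios of the members are the result of the selection and are given as a description, without a test.

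RNA was sequenced from PC3 cells transduced with lentiviral vectors. There were 4 samples labelled as biological replicates of a control hairpin (shScramble). Another 4 were labelled so for a hairpin against IER5L (shIER5L), an immediate early response gene. Transduced cells were selected with puromycin. A single hairpin, sh2 IER5L, stands for silencing, so that effects of its sequence other than on IER5L cannot be told apart from the loss of IER5L. The study's methods name a ribosomal RNA depletion kit and the sample labels a poly(A) mRNA kit, both of them strand-specific.

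The hairpin sequence is shown because every difference below is between cells that carry it and cells that carry the control. It is written 5′ to 3′ as the study lists it, in lower case.
sh2 IER5L: gacgcgtccaacatctcaaac

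Total counts ran from 21512128 to 24662190 per sample. The targeted gene, IER5L, was at 3.86, 6.65, 5.68 and 3.22 CPM in shScramble samples 1 to 4 and at 2.7, 3.04, 2.01 and 1.31 CPM in shIER5L samples 1 to 4. Its groups did not overlap, and the level fell in the edgeR fit (log2 change -1.08, with an SE, or standard error, of 0.248, adjusted p = 0.0212, edgeR quasi-likelihood test). That call was lost without shScramble replicate 2 (adjusted p = 0.0937, edgeR), without shScramble replicate 3 (0.0780) and without shIER5L replicate 3 (0.0891). The 5 epithelial keratin and adhesion markers summed to between 934 and 1026 CPM in shScramble and between 887 and 1066 CPM in shIER5L cells. One of them, the weakly expressed keratin KRT7, fell from 2.22 ± 0.378 to 1.18 ± 0.205 CPM (SD, n = 4; log2 change -0.90, SE 0.215, adjusted p = 0.0264, edgeR), but the adjusted p stayed under 0.05 in only 2 of the 8 fits without 1 sample and reached 0.0989 without shScramble replicate 3. All 5 stromal markers were under 1 CPM in every sample, although their sum ran from 1.57 to 1.77 CPM in shScramble and from 2.08 to 2.66 CPM in shIER5L cells. Immune markers summed to between 0.930 and 2.38 CPM in shScramble and between 0.783 and 1.39 CPM in shIER5L cells, and endothelial markers to between 31.9 and 34.9 CPM and between 26.7 and 31.4 CPM. The part of these marker levels in the results was not tested.

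Several of the members belong to known stress programmes. NRF2 is a transcription factor that is held down by KEAP1 in unstressed cells and, when released, pairs with small MAF proteins on antioxidant response elements to switch on genes for glutathione synthesis, quinone and carbonyl reduction and heme breakdown. ATF4, in turn, is translated when amino acids run short or the endoplasmic reticulum is stressed, and raises amino acid transporters, amino acid synthesis enzymes and tRNA synthetases. The cystine transporter gene SLC7A11 is a textbook target of both.

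Of the 60 members, 56 were protein-coding genes and 4 were long noncoding RNAs. Their median ratio was 1.58-fold, from 1.43-fold to 2.29-fold, and only CALCRL reached a log2 ratio of 1. The median log2 ratio was 0.66 over the members and -0.01 over the 12399 genes past the mean CPM. In a bulk sample, a lower transcript level from fewer cells of a kind and from less RNA per cell cannot be told apart, and the same holds for a higher level. The members were mostly weakly expressed, with a median of 8.17 CPM against 30.7 CPM for all genes past the mean CPM. There were 34 members (56.7%) under 10 CPM, against 26.7% of all those genes, and 4 members over 50 CPM. Counts per sample and member ranged from 23 to 7931.

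**Figure D1:**
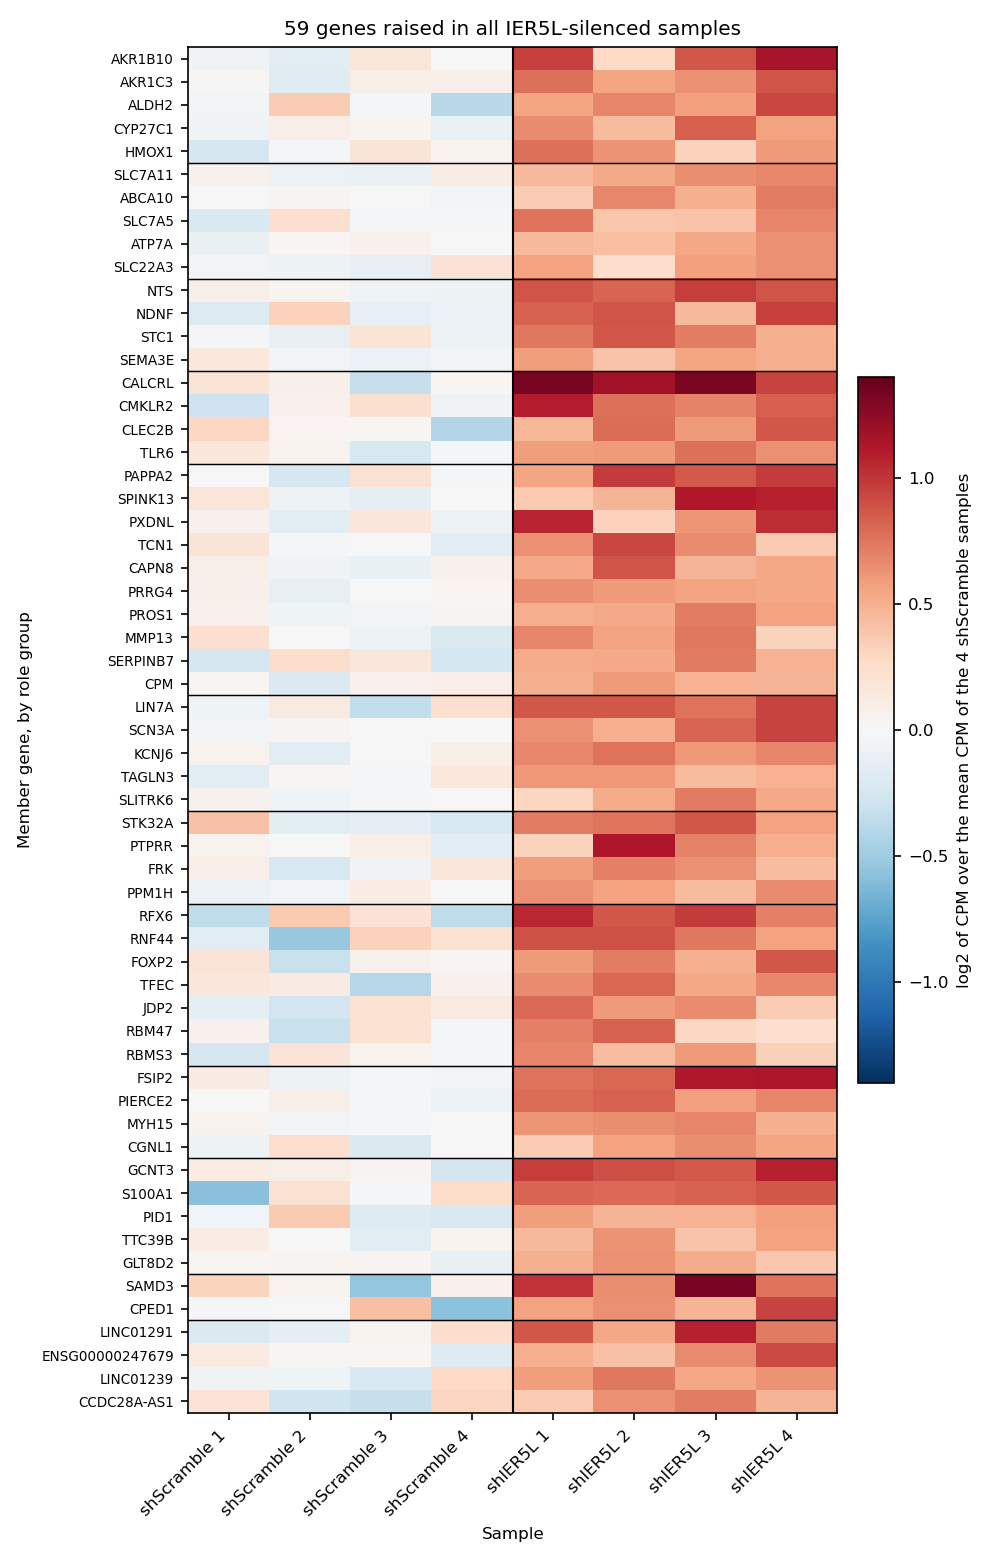
Heat map of 59 of the 60 members (vertical axis, in blocks by role and by falling ratio within a block) in the 8 samples (horizontal axis); colour gives the log2 of CPM over the mean CPM of the 4 shScramble samples. The 4 shIER5L samples are above the shScramble samples in every line, with sample medians between 0.637 and 0.654 over the 60 members.

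The rule required all 4 shIER5L samples of a member to lie above the controls, and the values by sample describe the members it chose. The median log2 CPM relative to the shScramble mean was 0.643, 0.637, 0.654 and 0.652 in shIER5L samples 1 to 4, and 0.024, -0.001, -0.011 and -0.004 in shScramble samples 1 to 4. The highest shIER5L value fell in sample 4 for 19 members, in sample 2 for 15, in sample 3 for 14 and in sample 1 for 12. These medians follow from the selection and nothing is read from them.

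Complete separation of 4 from 4 samples was not rare among these genes. In the upward direction 950 of the 12399 genes separated, or 7.66%, and in the downward direction 822, or 6.63%. A log2 ratio of at least 0.5 was reached by 74 genes (0.597%) whether or not the samples separated. The quasi-likelihood test of edgeR called 55 of the 60 members higher at an adjusted p under 0.05 and a log2 fold change of at least 0.5, beside 0.425% of the 16959 genes tested called higher and 0.366% called lower. That test used the same contrast as the rule, so nothing is read from this count. The 5 members it did not call were PID1, RBMS3, RBM47, CCDC28A-AS1 and CPED1. Over all genes tested 72 were called higher, which fell to 45 without shScramble replicate 3 and to 46 without shIER5L replicate 3, where 40 members were called in each fit.

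The rule was also applied 8 times with 1 sample left out. It then picked between 61 and 76 genes, among them between 52 and 57 of the 60 members. The sample left out lay beyond every sample of the other group for between 82.9% and 94% of the picked genes. For all genes past the mean CPM without that sample, this share was between 20.9% and 28.6%. The left-out sample had no part in the choice of the picked genes, but the samples of the other group it was set against did. The shares of the picked genes are therefore in part set by the selection. The 8 lists also share most of their samples.

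The genes nearest to each limit show how fine the selection was. Just inside the log2 ratio were GLT8D2 and SLC22A3 at 0.512 and SEMA3E at 0.515, and just outside were PCMTD1 at 0.494 and HAPLN1 and AKR1B1 at 0.493. Just inside the mean CPM were CCDC28A-AS1 at 2.01, GCNT3 at 2.03 and RNF44 at 2.04 CPM, and just outside were RHOH at 1.91, LRRC66 at 1.89 and UGT1A1 at 1.80 CPM. The narrowest separation inside belonged to RBM47, with a lowest shIER5L sample at 2.76 CPM and a highest shScramble sample at 2.72 CPM. GRIA3 stayed outside because its lowest shIER5L sample, at 2.35 CPM, was just under its highest shScramble sample, at 2.37 CPM.

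**Figure D2:**
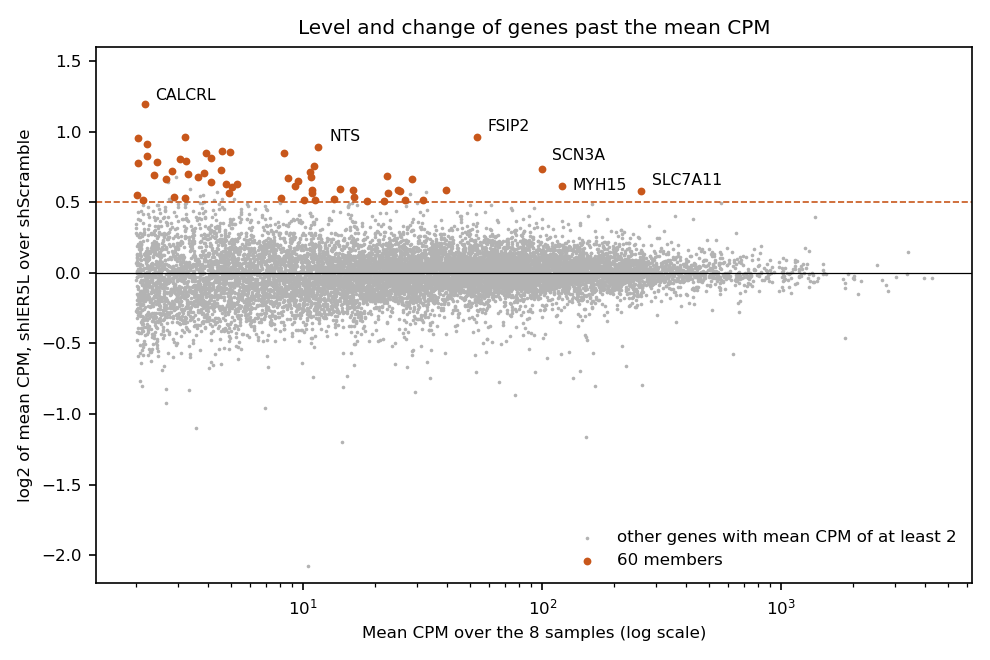
Each point is a gene with a mean of at least 2 CPM, plotted by its mean CPM over the 8 samples (horizontal, log scale) and the log2 of its mean CPM in shIER5L over shScramble (vertical); members are orange and the dashed line is the limit of 0.5. Most members lie at the weakly expressed end, and FSIP2, SCN3A, MYH15 and SLC7A11 are the 4 members over 50 CPM.

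The redox and carbonyl enzymes among the members were HMOX1, AKR1C3, AKR1B10, ALDH2 and CYP27C1. HMOX1 encodes heme oxygenase 1, which opens heme into biliverdin, iron and carbon monoxide, and lies on chromosome 22 from 35380361 to 35394214 (hg38). It was at 10.9, 12.7, 14.6 and 13.3 CPM in shScramble samples 1 to 4 and at 21.9, 19.9, 16.1 and 19.4 CPM in shIER5L samples 1 to 4. The narrowest distance was between shScramble 3 and shIER5L 3, and the means of 12.9 ± 1.56 and 19.3 ± 2.40 CPM (SD, n = 4 in each group, as for all means below) differed 1.5-fold. Of its partners in heme handling, HMOX2 had a log2 fold change of 0.01, biliverdin reductase BLVRB 0.27 and BLVRA 0.14, and neither reductase passed the test (adjusted p = 0.144 and 0.189, edgeR).

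AKR1C3, an aldo-keto reductase that converts steroids and prostaglandins, was at 8.18, 7.21, 8.56 and 8.50 CPM in shScramble and at 13.8, 11.9, 12.6 and 14.9 CPM in shIER5L cells. AKR1B10, which reduces retinal and other aldehydes, was at 5.72, 5.36, 6.69 and 5.95 CPM in shScramble and at 11.5, 7.19, 10.8 and 13.2 CPM in shIER5L cells. shIER5L 2 was the lowest of its group for both reductases, and for AKR1B10, at 7.19 CPM, it lay just above the highest shScramble sample, at 6.69 CPM. The near-identical paralogues AKR1C1 and AKR1C2 had log2 fold changes of 0.23 (SE 0.116, adjusted p = 0.342, edgeR) and 0.26 (SE 0.140, adjusted p = 0.398, edgeR), and how reads were divided between these paralogues and AKR1C3 is uncertain, since reads shared by them were not measured. AKR1B1, the aldose reductase gene beside AKR1B10 on chromosome 7, had a log2 fold change of 0.51 (SE 0.142, adjusted p = 0.0567, edgeR) and separated the groups without reaching the log2 ratio of the rule. ALDH2, the mitochondrial aldehyde dehydrogenase that clears acetaldehyde, was weakly expressed at 1.77, 2.33, 1.78 and 1.39 CPM in shScramble and 2.66, 2.92, 2.71 and 3.48 CPM in shIER5L cells.

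Among the transporters, SLC7A11 was the most abundant member. It encodes the xCT light chain, which imports cystine in exchange for glutamate and so feeds glutathione synthesis, and lies on chromosome 4, minus strand, from 138164097 to 138242349 (hg38). It was at 216, 196, 194 and 223 CPM in shScramble samples 1 to 4 and at 283, 300, 326 and 330 CPM in shIER5L samples 1 to 4, means of 207 ± 14.2 and 310 ± 22.1 CPM. Every shIER5L sample was thus above the highest shScramble sample, and per kilobase of exon the mean level went with 21.5 CPM in shScramble and 32.1 CPM in shIER5L cells, the highest of all members in both groups. Exons of an antisense RNA, SLC7A11-AS1, cover 8.97% of its exon bases, and counting did not separate strands. That RNA averaged 5.90 CPM and was higher in every shIER5L sample than in every shScramble sample (log2 ratio 0.47), and its part in the level of SLC7A11 was not tested.

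SLC7A5, the LAT1 light chain that imports large neutral amino acids, was at 3.39, 4.62, 3.89 and 3.85 CPM in shScramble and 6.66, 5.16, 5.18 and 6.32 CPM in shIER5L cells. SLC3A2, the heavy chain that both light chains need, was abundant at 305 ± 23.4 CPM in shScramble and 336 ± 31.8 CPM in shIER5L cells, with a log2 fold change of 0.16 (SE 0.0610) that did not pass the test (adjusted p = 0.188, edgeR). SLC7A8, the related LAT2 light chain, had a log2 fold change of 0.47 (SE 0.131, adjusted p = 0.0583, edgeR). The samples of SLC7A8 separated the groups, whereas those of SLC3A2 overlapped. Whether the light chains differed from the heavy chain in their change was not tested.

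SLC22A3, a transporter of organic cations, was at 14.8, 14.5, 14.1 and 17.6 CPM in shScramble and 22.5, 18.1, 22.7 and 23.7 CPM in shIER5L cells, so that shIER5L 2 lay close to shScramble 4. ATP7A, the copper pump that loads copper enzymes and exports excess copper, was at 20.5, 22.3, 22.9 and 22.1 CPM in shScramble and 30.1, 29.3, 31.9 and 34.3 CPM in shIER5L cells. Its groups did not overlap, and of the other copper genes, the importer SLC31A1 rose by 0.20 on the log2 scale (SE 0.0478, adjusted p = 0.0283, edgeR), while ATP7B and the chaperone ATOX1 had log2 fold changes of 0.10 and 0.01 (adjusted p = 0.751 and 0.961, edgeR). The adjusted p of SLC31A1 was over 0.05 in 5 of the 8 fits without 1 sample, up to an adjusted p = 0.115 without shScramble replicate 2 (edgeR). ABCA10, the last of the 5 transporters, shares 3.78% of its exon bases with the more abundant ABCA5 on the same strand.

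**Figure D3:**
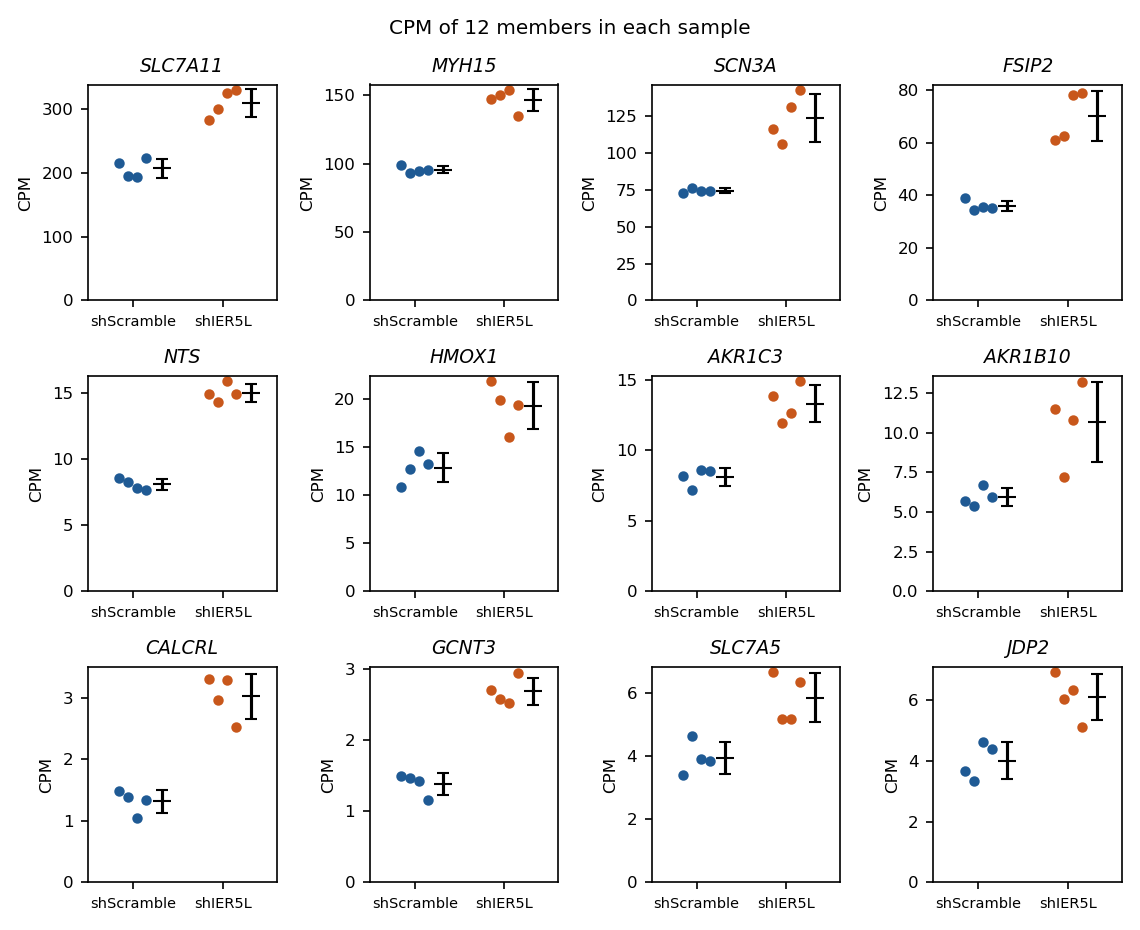
CPM (vertical axes, from 0) of 12 members in the 4 shScramble samples (blue) and the 4 shIER5L samples (orange), samples 1 to 4 from left to right within a group; black bars give mean ± SD (n = 4). The groups are apart in every panel. Relative to the level, the distance is widest for CALCRL, GCNT3, NTS and FSIP2 and narrowest for HMOX1, AKR1B10, SLC7A5 and JDP2.

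The promoters of members and of the list genes were searched for the core letters of 3 response elements on both strands, in RefSeq sequence (GRCh38.p14) from 250 bases before to 50 bases after the start of each gene. Promoter sequence was at hand for 41 of the 60 members and for 9619 genes past the mean CPM. It was missing for the members HMOX1, SLC7A11 and AKR1B10, which are on the NRF2 list described below. The antioxidant response element core TGACNNNGC was in 8 of the 41 member promoters (19.5%) and in 15.4% of the 9619. Those 8 were CALCRL, CPED1, CPM, PPM1H, SLC7A5, SLITRK6, TCN1 and TFEC, none of them on the NRF2 list. The amino acid response element core TGATGNAA was in 3 member promoters (7.32%) and in 1.72% of the 9619, and the AP-1 site TGANTCA in 4 (9.76%) and 4.43%. For comparison, the antioxidant core was in 7 of 21 promoters of the NRF2 list (33.3%) and in 8 of 26 promoters of the amino acid response list (30.8%). The amino acid core was in 6 of 26 promoters of the amino acid response list (23.1%) and in 0 of 21 of the NRF2 list. With counts of 3, 4 and 8 promoters these shares describe the letters present, and a match is not a site of binding.

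The windows below are shown because they hold such letters in a member or in a list gene that passed the test. Each is 30 bases, 5′ to 3′ on the strand of the gene, with the matched core in capitals. The first pair is from members with the amino acid core, CALCRL (chr2:187448309-187448338, minus strand) and TCN1 (chr11:59866620-59866649, minus strand, core in reverse complement), and the third, for comparison, is from the asparagine synthetase gene ASNS (chr7:97872458-97872487, minus strand).
CALCRL: cggggtcagagTGATGTAAcaggaagctct
TCN1: ttccttatttaTTACATCAcatggacaaat
ASNS: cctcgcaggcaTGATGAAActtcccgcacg

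The next windows hold the antioxidant core in the member SLC7A5 (chr16:87869490-87869519, minus strand) and in the list genes GCLM (chr1:93909445-93909474, minus strand) and PIR (chrX:15493288-15493317, minus strand), the latter both in reverse complement. In PIR the capitals overlap the letters of an AP-1 site. SLC7A5 is on the amino acid response list, and GCLM and PIR are on the NRF2 list.
SLC7A5: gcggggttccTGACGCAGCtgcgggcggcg
GCLM: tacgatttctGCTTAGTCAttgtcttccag
PIR: gccgcgaagcGCTGAGTCAcggtgaggcta

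Since 4 members, HMOX1, AKR1C3, AKR1B10 and SLC7A11, stood on a list of 31 NRF2 targets, the rest of that list was examined in the edgeR fit. Of 30 targets tested, 24 had a log2 fold change above 0 and 6 below 0, with a median of 0.10 against 0.0021 over all genes tested. An adjusted p under 0.05 was reached by 8 upward and 1 downward (26.7% upward, against 2.46% upward and 1.46% downward of all genes tested). The members among them were chosen on the same contrast. Of the 26 other targets tested, 20 were above 0, with a median of 0.07, and 4 rose. The share above 0 was 50.6% over all genes tested. Of the 31 targets, 29 averaged at least 2 CPM, whereas the genes tested include weaker ones. This list and the other gene lists below were written with earlier results of these data known, so their counts are a description.

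GCLM, the modifier subunit of the enzyme that starts glutathione synthesis, was at 108, 104, 103 and 108 CPM in shScramble and 132, 126, 143 and 145 CPM in shIER5L cells, a rise of 0.38 on the log2 scale (SE 0.0552, adjusted p = 0.000788, edgeR). PIR, an iron-binding nuclear protein, was at 57.0 ± 1.90 CPM in shScramble and 73.3 ± 1.07 CPM in shIER5L cells and rose by 0.38 (SE 0.0501, adjusted p = 0.000342, edgeR). NQO1, a quinone reductase, was at 198 ± 5.44 and 235 ± 14.1 CPM and rose by 0.26 (SE 0.0486, adjusted p = 0.00561, edgeR). UGDH, which makes UDP-glucuronate, was at 182 ± 8.39 and 223 ± 14.3 CPM and rose by 0.31 (SE 0.0566, adjusted p = 0.00563, edgeR). In these 4 genes every shIER5L sample lay above every shScramble sample.

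Not every target rose at an adjusted p under 0.05. GSR, glutathione reductase, fell by 0.24 (SE 0.0433, adjusted p = 0.00462, edgeR), with 162 ± 5.86 CPM in shScramble and 136 ± 3.01 CPM in shIER5L cells. GCLC, the catalytic partner of GCLM, had a log2 fold change of 0.07 (SE 0.0713, adjusted p = 0.695, edgeR), and the abundant thioredoxin reductase TXNRD1 0.17 (SE 0.0482, adjusted p = 0.0720, edgeR). TXNRD1 still separated the groups, with a lowest shIER5L sample at 3316 CPM and a highest shScramble sample at 3282 CPM. The pentose phosphate enzymes PGD, TALDO1 and TKT had log2 fold changes between -0.07 and 0.11, none of which passed the test. Values of the other genes are in the plot of the NRF2 and amino acid lists.

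Of 8 regulators of NRF2, none rose and 1 fell at an adjusted p under 0.05 in edgeR, and at an unadjusted p under 0.05 the counts were 1 and 1 (9.69% upward and 6.78% downward of all genes tested). NFE2L2, the gene of NRF2 itself, was at 94 ± 6.81 CPM in shScramble and 94.5 ± 4.95 CPM in shIER5L cells (log2 fold change 0.03, SE 0.0592). KEAP1 fell by 0.25 (SE 0.0623, adjusted p = 0.0326, edgeR), from 111 ± 7.35 to 92.5 ± 8.43 CPM. Its adjusted p was over 0.05 in 4 of the 8 fits without 1 sample: without shScramble replicate 2 (adjusted p = 0.104, edgeR), without shScramble replicate 3 (0.132), without shIER5L replicate 3 (0.113) and without shIER5L replicate 4 (0.0781). MAFG, a small MAF partner, had a log2 fold change of 0.25 (SE 0.102, adjusted p = 0.215, edgeR).

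**Figure D4:**
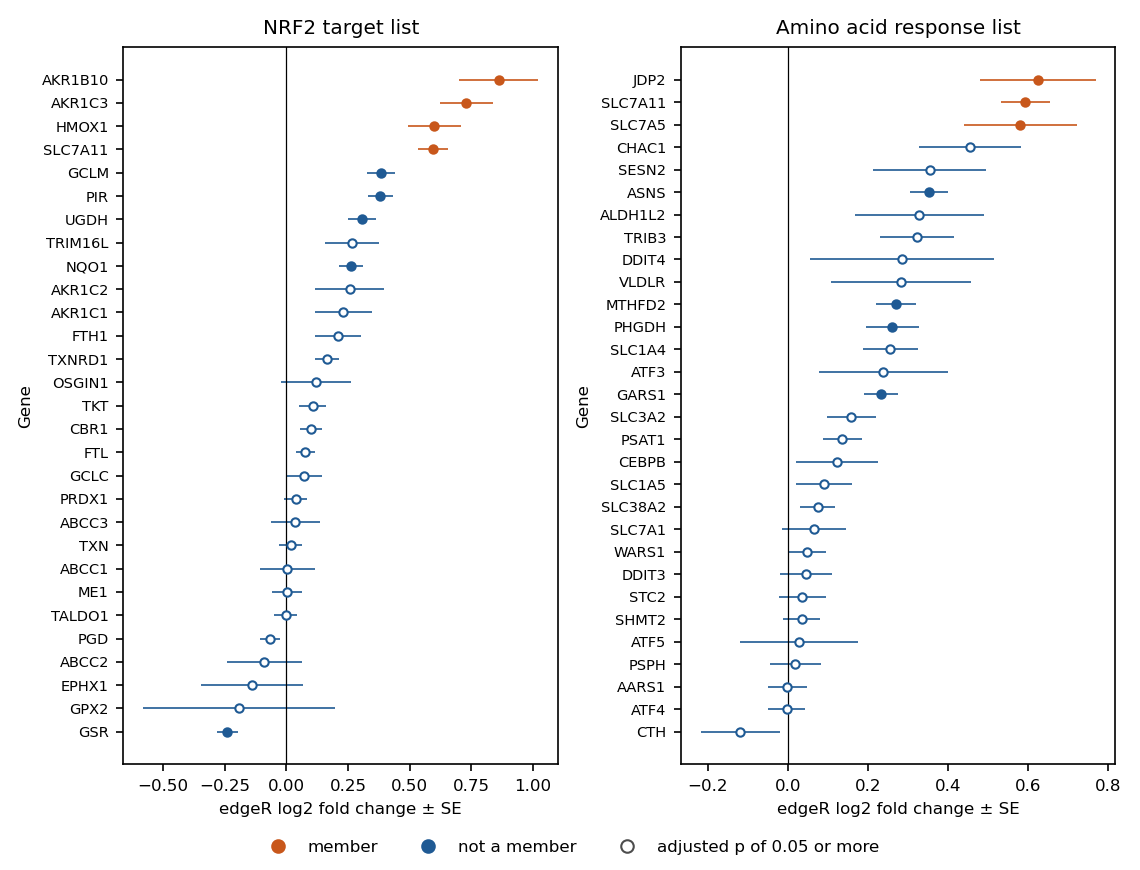
edgeR log2 fold change ± standard error (horizontal axes) of 29 and 30 tested genes (vertical axes) of the NRF2 target list (left) and the amino acid response list (right), members in orange, other genes in blue, open circles for an adjusted p of 0.05 or more. The line at 0 has 23 of 29 NRF2 targets drawn and 27 of 30 amino acid response genes to its right.

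SLC7A11 also stands on a list of 30 amino acid response genes, together with the members SLC7A5 and JDP2. JDP2, a basic leucine zipper repressor of the AP-1 family, was at 3.67, 3.33, 4.62 and 4.38 CPM in shScramble and 6.92, 6.04, 6.33 and 5.10 CPM in shIER5L cells, with shIER5L 4 nearest to the controls. All 30 genes were tested, 27 with a log2 fold change above 0 and 3 below 0, with a median of 0.20. An adjusted p under 0.05 was reached by 7 upward (23.3%) and by 0 downward, against 2.46% upward and 1.46% downward of all genes tested. At an unadjusted p under 0.05 the counts were 13 upward and 0 downward, against 9.69% upward and 6.78% downward of all genes tested. All 30 genes averaged at least 2 CPM, whereas the genes tested include weaker ones. With the fold limit, 3 were called, the 3 members, and without shScramble replicate 1, shIER5L replicate 1 or shIER5L replicate 3 this count was 1. The adjusted p of SLC7A5 stayed under 0.05 in only 2 of the 8 fits without 1 sample (up to 0.0876, edgeR). That of JDP2 did so in 4 (up to 0.0904, edgeR), and that of SLC7A11 in all 8.

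Leaving out the 3 members, 24 of 27 genes were above 0 with a median of 0.14, and 4 rose. Of all genes tested, 50.6% were above 0 and 2.46% rose. ASNS was at 124, 132, 121 and 133 CPM in shScramble and 156, 168, 164 and 156 CPM in shIER5L cells, a rise of 0.35 (SE 0.0465, adjusted p = 0.000342, edgeR). The mitochondrial folate enzyme MTHFD2 rose by 0.27 (SE 0.0505, adjusted p = 0.00583, edgeR), the glycyl-tRNA synthetase GARS1 by 0.23 (SE 0.0427, adjusted p = 0.00550, edgeR) and the serine synthesis enzyme PHGDH by 0.26 (SE 0.0665, adjusted p = 0.0373, edgeR). For ASNS, MTHFD2 and GARS1 the groups did not overlap, and the adjusted p stayed under 0.05 in all 8 fits without 1 sample. That of PHGDH was over 0.05 in 7 of these 8 fits, up to an adjusted p of 0.144 without shScramble replicate 2 (edgeR), and stayed under it without shIER5L replicate 4.

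The transcript of ATF4 did not separate the groups, at 270 ± 4.91 CPM in shScramble and 267 ± 17.2 CPM in shIER5L cells (log2 fold change -0.003, SE 0.0452, adjusted p = 0.985, edgeR). DDIT3, which encodes the stress factor CHOP, had a log2 fold change of 0.05 (SE 0.0649, adjusted p = 0.805, edgeR). CHAC1, a glutathione-degrading enzyme, had 0.46 (SE 0.127, adjusted p = 0.0574, edgeR) and TRIB3, a pseudokinase, 0.32 (SE 0.0918, adjusted p = 0.0632, edgeR), and neither passed the test.

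A list of 31 aldehyde and carbonyl enzymes held 3 members, ALDH2, AKR1B10 and AKR1C3, which were also the 3 called higher. The call on ALDH2 (adjusted p = 0.0476, edgeR) was lost in 7 of the 8 fits without 1 sample, up to an adjusted p of 0.140 without shScramble replicate 4, and stood without shScramble replicate 2. Of 23 tested, 11 were above 0 and 12 below 0, with a median of -0.001, and of the 20 that were not members, 8 were above 0. A list of 21 hypoxia genes held the member STC1, and 12 were above 0 and 9 below 0 with a median of 0.02. STC1 was the only one higher at an adjusted p under 0.05, while the glycolysis genes HK2 and PGK1 fell by 0.73 and 0.45 (SE 0.0535 and 0.0391, adjusted p = 9.76e-07 and 8.87e-06, edgeR). A list of 19 targets and feedback regulators of ERK signalling, of which 17 were tested, held no member and split into 8 above 0 and 9 below 0, with a median of -0.02. PHLDA1, a feedback protein, rose by 0.22, and the phosphatase DUSP4, the factor ETV4 and the cyclin CCND1 fell by 0.22, 0.35 and 0.28 (adjusted p = 0.0128, 0.00932, 0.0117 and 0.00273, edgeR). Without shScramble replicate 3 PHLDA1, DUSP4 and ETV4 no longer passed (adjusted p = 0.0604, 0.0510 and 0.0530, edgeR), nor did ETV4 without shScramble replicate 2 (0.0506). Over all genes tested, 50.6% were above 0, 0.425% were called higher and 0.366% called lower. At an adjusted p under 0.05 and any fold change, 2.46% rose and 1.46% fell (edgeR).

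The secreted ligands among the members were NTS, STC1, NDNF and SEMA3E. NTS encodes neurotensin, a peptide of gut and nerve that is also made by prostate cancer cells, and lies on chromosome 12 from 85874295 to 85882992 (hg38). It was at 8.60, 8.29, 7.83 and 7.69 CPM in shScramble samples 1 to 4 and at 14.9, 14.3, 15.9 and 14.9 CPM in shIER5L samples 1 to 4. Both groups were tight, at 8.10 ± 0.419 and 15 ± 0.688 CPM, and 1.85-fold apart. Its receptors NTSR1 and SORT1 had log2 fold changes of 0.08 and -0.06 (adjusted p = 0.854 and 0.714, edgeR), and NTSR2 had 0 counts in every sample. For counting error only, 3 counts, or 0.139 CPM in the shallowest sample, could go unseen. That limit is too low, because the reads of a pair were counted one by one.

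STC1, stanniocalcin 1, was at 2.88, 2.68, 3.32 and 2.77 CPM in shScramble and 4.87, 5.33, 4.77 and 4.11 CPM in shIER5L cells. Its paralogue STC2, far more abundant at 202 ± 13.6 and 205 ± 17.2 CPM, had a log2 fold change of 0.04 (SE 0.0590). SEMA3E, a class 3 semaphorin that signals through plexin D1, was at 29.1, 25.4, 24.7 and 25.5 CPM in shScramble and 39.4, 34.4, 38.4 and 37.3 CPM in shIER5L cells. The co-receptor NRP1 rose by 0.18 (SE 0.0383, adjusted p = 0.0123, edgeR), from 471 ± 5.40 to 529 ± 11.7 CPM, which did not pass without shScramble replicate 2 (adjusted p = 0.0578, edgeR). PLXND1 and NRP2 did not pass the test (adjusted p = 0.724 and 0.470, edgeR).

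The receptors included CALCRL, CMKLR2, TLR6 and the lectin-like CLEC2B. CALCRL, the receptor that RAMP proteins turn into a receptor for calcitonin gene-related peptide or adrenomedullin, had the largest ratio of all members, 2.29-fold. It was at 1.49, 1.38, 1.05 and 1.34 CPM in shScramble and 3.31, 2.96, 3.29 and 2.53 CPM in shIER5L cells, which rests on counts between 26 and 80 per sample. RAMP1 was at 71.4 ± 12.8 and 69.2 ± 14.9 CPM with overlapping groups, RAMP2 and RAMP3 had 0 counts in every sample, and the ligand gene ADM had a log2 fold change of 0.27 (SE 0.102, adjusted p = 0.188, edgeR). CMKLR2, a chemerin receptor, was at 2.88, 3.67, 4.1 and 3.4 CPM in shScramble and 7.53, 6, 5.67 and 6.28 CPM in shIER5L cells, while the chemerin gene RARRES2 had 0 counts in every sample. In TLR6, which detects bacterial lipopeptides together with TLR2, the ratio was 1.57-fold, and TLR2 had a log2 fold change of 0.23 (SE 0.118, adjusted p = 0.367, edgeR).

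The largest group by role, 10 members, held proteases, protease inhibitors and other secreted or extracellular proteins. PAPPA2, a metalloprotease that cuts insulin-like growth factor binding proteins, was at 2.79, 2.38, 3.24 and 2.77 CPM in shScramble and 4.09, 5.49, 5.06 and 5.51 CPM in shIER5L cells. IGFBP3, one of the proteins it cuts, fell by 0.62 (SE 0.109, adjusted p = 0.00396, edgeR), from 11.7, 13, 11.3 and 12.2 CPM to 7.14, 7.23, 9.25 and 7.32 CPM. The protease gene and the binding protein gene thus lay on opposite sides of 0, and the fall of IGFBP3 was called in all 8 fits without 1 sample.

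PROS1, protein S, a vitamin K-dependent cofactor of coagulation and a ligand of TAM receptor kinases, was at 33.1, 30.4, 31.0 and 32.5 CPM in shScramble and 45.3, 45.9, 52.3 and 46.8 CPM in shIER5L cells. PRRG4, a membrane protein with the same kind of vitamin K-dependent Gla domain, was at 20.9, 18.4, 19.9 and 20.3 CPM and 31.3, 30, 29.4 and 28.9 CPM. Of the TAM receptors, MERTK rose by 0.33 (SE 0.0717, adjusted p = 0.0155, edgeR) from 23.9, 23, 23.9 and 25.8 CPM to 30.2, 28.3, 31 and 30.4 CPM, whereas AXL and TYRO3 had log2 fold changes of -0.10 and 0.03 (adjusted p = 0.739 and 0.890, edgeR). MERTK did not pass without shScramble replicate 2 (adjusted p = 0.0712, edgeR), without shScramble replicate 3 (0.0583) and without shIER5L replicate 3 (0.0598). TCN1, the vitamin B12 carrier haptocorrin, was at 24.9, 21.5, 21.8 and 19.6 CPM in shScramble and 34.2, 42.1, 34.8 and 28.2 CPM in shIER5L cells.

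The other 6 of this group, MMP13, CPM, CAPN8, SPINK13, SERPINB7 and PXDNL, are the collagenase 3, carboxypeptidase M, a calpain, a pair of protease inhibitors and a peroxidasin-like protein, and the ratios of the whole group ran from a log2 of 0.52 to 0.85. MMP1, the collagenase gene near MMP13 on chromosome 11, had a log2 fold change of 0.03 (SE 0.0916). The exons of the carboxypeptidase M gene, which shares its symbol with the unit used here, overlap those of MDM2, at 90.1 CPM on the opposite strand, over 1.77% of its exon bases.

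The channel and neuronal group held SCN3A, KCNJ6, LIN7A, SLITRK6 and TAGLN3. SCN3A, the pore subunit of a voltage-gated sodium channel of developing brain, was the third most abundant member, at 72.7, 76.5, 74.2 and 74.1 CPM in shScramble and 116, 106, 131 and 143 CPM in shIER5L cells. The shScramble samples were close together (74.4 ± 1.61 CPM) and the shIER5L samples spread more widely (124 ± 16.3 CPM) without reaching them. Its chromosomal neighbours SCN2A and SCN9A had log2 fold changes of 0.20 and 0.12 and did not pass the test (adjusted p = 0.460 and 0.630, edgeR). KCNJ6, an inward rectifier potassium channel opened by G proteins, was at 17.9, 15.5, 17.3 and 18.3 CPM in shScramble and 27.5, 29.2, 26.3 and 27.7 CPM in shIER5L cells, while its partners KCNJ3, KCNJ5 and KCNJ9 had at most 0.0904 CPM in any sample. LIN7A, a scaffold of cell junctions and synapses, had 3.25 ± 0.545 CPM in shScramble and 5.91 ± 0.315 CPM in shIER5L cells.

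FSIP2 and MYH15 were the other abundant members. FSIP2, a fibrous sheath protein of the sperm tail, on chromosome 2 from 185738628 to 185833290 (hg38), was at 38.9, 34.3, 35.7 and 35.2 CPM in shScramble and 61.1, 62.7, 78.3 and 78.9 CPM in shIER5L cells, 1.95-fold apart. shIER5L samples 3 and 4 were above shIER5L samples 1 and 2. The same split was seen over all genes, by the chi-square between the counts of a pair of samples. It was 3.33 per degree of freedom for shIER5L 1 with 2 and 4.18 for 3 with 4, and between 7.18 and 11.6 for the other shIER5L pairs. MYH15, a myosin heavy chain related to slow muscle myosins, was at 99.1, 93.3, 94.8 and 95.4 CPM in shScramble and 147, 150, 154 and 135 CPM in shIER5L cells. Its means of 95.7 ± 2.48 and 146 ± 8.07 CPM were 1.53-fold apart. PIERCE2, a protein of cilia microtubules, was at 2.13 ± 0.0960 CPM in shScramble and 3.5 ± 0.264 CPM in shIER5L cells. CGNL1, a tight junction protein, completed this group.

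Of the 4 kinases and phosphatases, PPM1H, a phosphatase of Rab proteins, was at 19.3, 19.9, 22 and 20.4 CPM in shScramble and 31.9, 30.1, 27.8 and 32.2 CPM in shIER5L cells. The other 3 were FRK, STK32A and PTPRR, a phosphatase that acts on ERK, with the group's log2 ratios between 0.58 and 0.73. Transcription factors, RNA-binding proteins and a ubiquitin ligase made up 7 members, with RFX6, FOXP2, TFEC, JDP2, RBM47, RBMS3 and RNF44 at a mean of 8.67 CPM or less. RFX6, a factor of pancreatic islet development, was at 1.21, 1.99, 1.78 and 1.21 CPM in shScramble and 3.22, 2.83, 3.04 and 2.53 CPM in shIER5L cells. The shScramble samples fell into a lower pair (1 and 4) and a higher pair (2 and 3), and both lay below every shIER5L sample. These were also the closest shScramble pairs over all genes. Their chi-square was 3.45 and 2.80 per degree of freedom, against 5.19 to 6.32 for the other shScramble pairs.

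GCNT3, which builds branched O-glycans of mucins, had 1.38 ± 0.150 CPM in shScramble and 2.68 ± 0.188 CPM in shIER5L cells, 1.94-fold apart on counts between 26 and 65. GLT8D2, a glycosyltransferase family member, had 18.0 ± 0.855 and 25.6 ± 1.86 CPM. The paralogues GCNT1 and GLT8D1 had log2 fold changes of -0.04 and 0.03 (adjusted p = 0.920 and 0.842, edgeR). S100A1, a calcium-binding protein, had 1.61 ± 0.388 and 2.85 ± 0.0625 CPM, but its exons overlap those of S100A13, at 83.4 CPM on the opposite strand, over 7.76% of its exon bases. SAMD3 and CPED1 were not assigned a role, and SAMD3 had 2.18 ± 0.498 and 4.25 ± 0.910 CPM.

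The 4 long noncoding RNAs were LINC01291, LINC01239, ENSG00000247679 and CCDC28A-AS1. LINC01291 was at 2.60, 2.72, 3.08 and 3.53 CPM in shScramble and 5.44, 4.35, 6.29 and 4.92 CPM in shIER5L cells. LINC01239 had 4.14 ± 0.614 and 6.39 ± 0.365 CPM and ENSG00000247679 had 3.21 ± 0.281 and 5 ± 0.802 CPM. CCDC28A-AS1 was at 1.63 ± 0.363 and 2.39 ± 0.264 CPM, and its exons overlap those of CCDC28A on the opposite strand, which averaged 17.9 CPM. In all, 27 members shared exon bases with another gene, 19 of them on the opposite strand, and for 6 the other gene averaged at least 2 CPM.

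The members leaned towards genes low in GC, and so did the ratios of all genes. GC content was taken from the longest transcript of each gene, a coding one where there was any. Its median was 42.1% for the members and 46.9% for all genes past the mean CPM. The median exon lengths, from the deposited counts, were 5215 and 4994 bases. When the genes were cut into 4 bins of equal size by GC content, 26 members fell in the lowest, 16 in the next, 14 in the third and 4 in the highest bin. In the same order, all genes had median log2 ratios of 0.05, 0.01, -0.03 and -0.05, and complete upward separation in 14.1%, 10.3%, 5.57% and 0.778% of genes. With the GC trend of each sample removed, the rule again gave 60 genes, 52 of them members, and HMOX1, SLC7A11, AKR1C3 and AKR1B10 were called in that fit too.

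**Figure D5:**
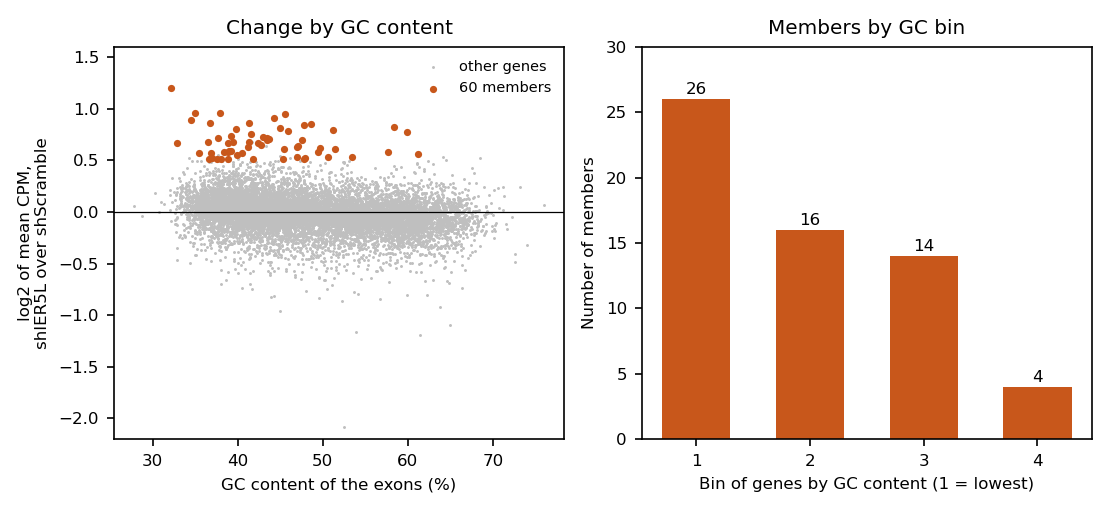
Left, GC content of the exons of the longest transcript, coding ones first (horizontal, %) against the log2 of mean CPM in shIER5L over shScramble (vertical) for genes past the mean CPM, members in orange. Right, number of members (bars, from 0) in each of 4 equal bins of genes by GC content, 26, 16, 14 and 4 from the lowest to the highest bin.

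The members were spread over the chromosomes. Chromosome 12 held 8 of them (13.3%, against 5.52% of the genes past the mean CPM), chromosome 2 held 7, and chromosomes 19 and 20 held 0. On chromosome 12, 7 members lay between 62643982 and 111817529, a stretch of 198 genes past the mean CPM with a median log2 ratio of 0.01 and complete upward separation in 29 (14.6%). The 120 neighbours of the members, 1 on either side of each and 119 genes in all, had a median log2 ratio of 0.05, and 17 of them (14.2%) separated upward. Over all genes past the mean CPM the median log2 ratio was -0.01, and 7.66% separated upward.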

How the data were processed

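RNA-seq of PC3 cells was analysed in 4 shScramble and 4 shIER5L samples, grouped by the sample labels and numbered by their replicate numbers. The authors deposited raw counts per Ensembl gene, and exon lengths (other values of that table) were used to give CPM per kilobase. The submitters' processing notes and the command in the table header name alignment by STAR 2.7.5c to hg38, removal of PCR duplicates with SAMtools 1.15, and counting of exon reads with featureCounts 2.0.3, without a strand option and with the reads of a pair counted one by one. Even numbers made up a median of 65.6% of the counts between 1 and 20, so the independent fragments are fewer than the counts. The annotation release was not given in the sources used here, and names, GC content and overlaps came from GENCODE v44, which matched 56948 of the 58051 genes.

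Computed here: CPM from total counts for the rule, and edgeR 4.0.16 (limma 3.58.1, R 4.3.3) for tests, with filterByExpr (16959 genes), TMM, glmQLFit and glmQLFTest, no covariate beside the condition, and p-values adjusted over all genes by Benjamini-Hochberg. Calls needed an adjusted p under 0.05 and a log2 fold change of 0.5 or more in size, while a gene that rose or fell had an adjusted p under 0.05 at any fold change. The fit was also tested on simulated data. Values of members are total-count CPM, while log2 fold changes are those of edgeR, with standard errors from the F statistic. The alternatives were TMM or RLE scaling, other limits, no filter on low counts, DESeq2 1.42.0, limma voom, a replicate block and each sample left out. A fit without each sample's GC trend, and the members without overlap by an expressed gene, were chosen after seeing the data.

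The members and all gene lists were chosen with earlier results of these data known. The members named with values were the 10 with the largest ratio, the 10 with the highest mean CPM, the 8 with the widest separation, those on a list, the noncoding ones and those nearest to a limit. Other genes named were IER5L, genes of the lists, regulators of NRF2, and paralogues or partners of members. Members outside that rule (TLR6 with its ratio, and those given by name alone) were chosen after their values were seen. The chi-square between replicates of a group ran from 2.80 (shScramble 2 with 3) to 11.6 (shIER5L 2 with 4) per degree of freedom. It was lowest within pairs of samples, shScramble 1 with 4 and 2 with 3, and shIER5L 1 with 2 and 3 with 4. The main fit had no term for these pairs, and their cause was not tested. Both reads of a read pair were counted, so sampling noise alone raises these values, and by how much was not tested. All 8 were counted as separate samples by their labels. The paper's methods describe plates of cells seeded for each experiment and do not say whether the plates came from separate transductions. The p-values may therefore measure only the spread between plates. The values of 2 genes, which stay in the counts and medians, are not reported here.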

Additional observations from a re-analysis of the deposited data

Results flagged for a closer look

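Within the groups of 4, 1 sample stood apart from the other 3 in 9 of 188 groups searched (94 genes named with values), where chance gives about 1 in 20. The levels are in CPM. Among members, GLT8D2 was at 16.7 in shScramble 4 against 18.3 to 18.4 in the others of its group. Among NRF2 targets, NQO1 was at 206 in shScramble 2 against 195 to 196, and PIR at 54.2 in shScramble 4 against 57.7 to 58.1. TRIB3 was at 41.8 in shScramble 1 against 46.4 to 46.8. Among paralogues and partners of members, AKR1B1 was at 4.99 in shIER5L 2 against 4.18 to 4.29, SCN2A at 9.54 in shIER5L 3 against 7.27 to 7.62, IGFBP3 at 9.25 in shIER5L 3 against 7.14 to 7.32, and NRP1 at 463 in shScramble 2 against 473 to 474. PHLDA1 was at 207 in shIER5L 4 against 196 to 198. These values came from 6 different samples, and their cause was not tested.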

How the results depend on the processing

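The 60 members were all kept under TMM scaling (70 genes in all) and RLE scaling (65). A mean CPM of at least 5 left 33 and a log2 ratio of at least 1 left 1, as fewer genes qualify by construction, and 54 were left without members overlapped by an expressed gene. With 1 sample left out, the rule gave 61 to 76 genes, edgeR called 40 to 50 members and 45 to 70 genes in all, and the amino acid response list had 1 to 3 calls. The replicate numbers did not pair the samples (correlations of same-numbered deviations from -0.0429 to 0.134), and with a replicate block 53 members and 77 genes in all were called. The calls on ALDH2 and RNF44 were lost under that block (adjusted p = 0.0610 and 0.0543, edgeR), and that on ALDH2 also under RLE scaling (0.0522) and limma voom (0.0556). Each was also lost in 7 of the 8 fits without 1 sample, up to an adjusted p of 0.140 for ALDH2 and 0.150 for RNF44. With the GC trend removed, 13 NRF2 targets and 12 amino acid response genes passed the adjusted p upward, against 8 and 7, and over all genes 812 against 418. By DESeq2 the adjusted p of SLC7A8 and AKR1B1 fell under 0.05 (0.0298 and 0.0473), with log2 fold changes of 0.46 and 0.50. With the GC trend removed both were called (0.00812 and 0.0173). Among the 36 named members 0 log2 fold changes changed sign in any fit, and 25 of them passed the adjusted p in every fit. Weakly expressed members rest on few counts, and 1 hairpin in 1 cell line limits what the groups stand for.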
